A study of Mus musculus with 10 samples.

Results

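Mtf2 and H3K27me3 were compared within WT CD71+Ter119high erythroblasts by setting the Mtf2 peak list of these cells against their H3K27me3 peak list on the 19 autosomes. The 2 lists held 4771 Mtf2 peaks and 4456 H3K27me3 peaks, together 9227 of the 50907 peaks in the 6 lists of the series. Each peak was put into a class by whether it shared at least 1 base with a peak of the other list. In all, 56 H3K27me3 peaks and 56 Mtf2 peaks did, 4400 H3K27me3 peaks had no Mtf2 peak on them, and 4715 Mtf2 peaks had no H3K27me3 peak on them.

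Mtf2 (also called Pcl2) is a Polycomb-like partner of PRC2, the complex that trimethylates lysine 27 of histone H3. The resulting mark, H3K27me3, is known from silenced developmental genes, whose promoters are often CpG islands, that is stretches rich in GC and in the dinucleotide CpG. Polycomb-like proteins are known to help bring PRC2 to unmethylated CpG-rich DNA, and erythroblasts are the red cell precursors that mature in the fetal liver (FL). The comparison asks how often the complex's partner and the complex's mark were called at the same places in these cells, and what kind of sequence and gene each occupied.

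The cells came from FL of WT C57Bl/6 embryos at e14.5, sorted as CD71+Ter119high, the more mature of the fractions studied, with 500000 cells per sample. The antibodies were anti-Mtf2 (Genway), anti-H3K27me3 (Millipore) and rabbit IgG as the control, and both ChIP libraries were called against the same IgG library. Each condition had 1 library in the files used here. The study's methods speak of 2 replicates, and the sources used here do not say if these were merged. No spread between replicates can therefore be given and no test was run. Intervals beside shares are Wilson intervals at 95% for counting error alone, and shares stand beside the share of the genome or of a regular grid of positions.

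The Mtf2 library held 15669899 unique tags of 39481374 (39.7%), the H3K27me3 library 30054186 of 36047115 (83.4%) and the IgG library 12345800 of 21250808 (58.1%). Autosomal peaks took up 0.934% of the unique Mtf2 tags and 0.725% of the unique H3K27me3 tags. A peak's score is the p that the authors' peak caller gave it on a negative log scale, higher for a smaller p, its fold enrichment is the ratio of ChIP to local IgG tags, and its FDR is an estimate from exchanging ChIP and IgG. The median score was 60.65 for Mtf2 and 68.4 for H3K27me3, with highest scores of 263.4 and 3016. The FDR of Mtf2 peaks was never under 6.94%, and that of H3K27me3 peaks ran from 0 to 33.9%.

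The sequences under high-scoring peaks of each class differed in base composition. The 160 bases centred on a summit are shown for high-scoring peaks of each class that touch no annotated UTR, read 5′ to 3′ from NCBIM37 (the assembly of mm9), with each CpG in capitals. The first 2 come from H3K27me3 peaks without Mtf2, named by the gene with the nearest transcriptional start site (TSS). *Unc45b* encodes a myosin chaperone and *Clcf1* a cytokine.
Unc45b (chr11:82744664-82744823, + strand): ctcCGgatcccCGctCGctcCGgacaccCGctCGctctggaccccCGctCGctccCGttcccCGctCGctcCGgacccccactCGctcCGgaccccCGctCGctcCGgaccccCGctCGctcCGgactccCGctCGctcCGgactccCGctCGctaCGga
Clcf1 (chr19:4214708-4214867, + strand): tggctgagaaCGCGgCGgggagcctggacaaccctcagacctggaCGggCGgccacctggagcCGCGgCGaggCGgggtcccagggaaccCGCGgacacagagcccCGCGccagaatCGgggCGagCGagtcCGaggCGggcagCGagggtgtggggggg
The next comes from the highest-scoring Mtf2 peak without H3K27me3, which is intergenic. Its FDR was 100%, against a median of 8.42% for the Mtf2 list, so its high score does not make it a sure call. *Cdkn1a* encodes the cell cycle inhibitor p21.
Cdkn1a (chr17:29242326-29242485, + strand): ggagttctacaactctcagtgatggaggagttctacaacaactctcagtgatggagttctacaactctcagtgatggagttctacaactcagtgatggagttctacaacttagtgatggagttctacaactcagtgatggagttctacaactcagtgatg
The last 2 come from H3K27me3 peaks that shared bases with a Mtf2 peak. *Nfix* encodes a nuclear factor I transcription factor and *Dock2* an activator of Rac in blood cells.
Nfix (chr8:87323760-87323919, + strand): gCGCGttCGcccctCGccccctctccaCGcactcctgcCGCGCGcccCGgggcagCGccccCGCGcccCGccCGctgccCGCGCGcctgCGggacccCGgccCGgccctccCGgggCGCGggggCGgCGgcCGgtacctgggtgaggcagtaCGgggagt
Dock2 (chr11:34495322-34495481, + strand): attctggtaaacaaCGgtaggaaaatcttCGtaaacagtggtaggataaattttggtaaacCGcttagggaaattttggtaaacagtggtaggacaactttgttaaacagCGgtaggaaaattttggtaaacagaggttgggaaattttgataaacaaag
The *Unc45b* and *Clcf1* windows held 26 and 19 CpGs at a GC content of 76.9% and 75.6%. The *Cdkn1a* window held 0 CpGs at a GC content of 43.1%. The *Nfix* window resembled the former with 27 CpGs and 85.0% GC. The *Dock2* window was low in GC like the latter, at 35.6%, but held 4 CpGs. A short unit recurs along the *Cdkn1a* window, and *Unc45b* and *Dock2* show near-repeats of the same kind.

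Overlap between Mtf2 and H3K27me3 was rare. Of the 4456 H3K27me3 peaks, 56 (1.26%, interval 0.969 to 1.63%) shared a base with a Mtf2 peak, while Mtf2 peaks covered 0.210% of the autosomal length. Of the 4771 Mtf2 peaks, 56 (1.17%, interval 0.905 to 1.52%) shared a base with a H3K27me3 peak, and H3K27me3 peaks covered 0.217%. Since a peak is about 1 kb long, the share of autosomal length within 0.5 kb of a Mtf2 peak, 0.394%, is a nearer background, and 0.313% (interval 0.190 to 0.516%) of 4793 grid regions of 1 kb held part of a Mtf2 peak. The overlap formed 57 pairs, in 51 of which the shared bases made up at least 50% of the shorter peak. Summits within a pair lay a median of 93.0 bases apart, with a range of 2 to 1528. The regions of most pairs thus coincided in position and did not merely touch. With peaks of an FDR of at most 10% alone, 4 of 1781 H3K27me3 peaks were overlapped (0.225%, interval 0.0874 to 0.576%). Mtf2 peaks then covered 0.189% of the length, and 0.3585% lay within 0.5 kb of one. The share was thus below the nearer background, and both backgrounds lie within its interval. With scores of at least 100 in both lists 0 of 1316 H3K27me3 peaks were overlapped. There the interval reaches 0.291% and Mtf2 peaks covered 0.0232%, so this 0 cannot tell the overlap from that background.

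Away from these pairs, H3K27me3 peaks were not nearer to Mtf2 peaks than the genome was. The distance from a H3K27me3 peak to the nearest Mtf2 peak had a median of 267.6 kb, with quartiles of 111.1 and 526.1 kb, and of 272.1 kb without the overlapped peaks, compared with a median of 203.3 kb from grid positions and 250.0 kb from the TSS of protein-coding genes. Of the 4400 H3K27me3 peaks not overlapped, 28 lay up to 5 kb from a Mtf2 peak (0.636%, interval 0.441 to 0.918%), compared with 1.93% of autosomal length, which includes the length under the Mtf2 peaks, and 0.820% of the TSS. Up to 50 kb away lay 10.9% of them (interval 10.0 to 11.9%), compared with 15.8% and 12.1%. Up to 100 kb away lay 21.9% (interval 20.7 to 23.1%), compared with 28.6% and 24.2%. In the other direction, the median distance from a Mtf2 peak to the nearest H3K27me3 peak was 390.4 kb, against 303.8 kb from grid positions. Only 2 H3K27me3 peaks lay within 1 kb of a Mtf2 peak without sharing a base with it.

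**Figure D1:**
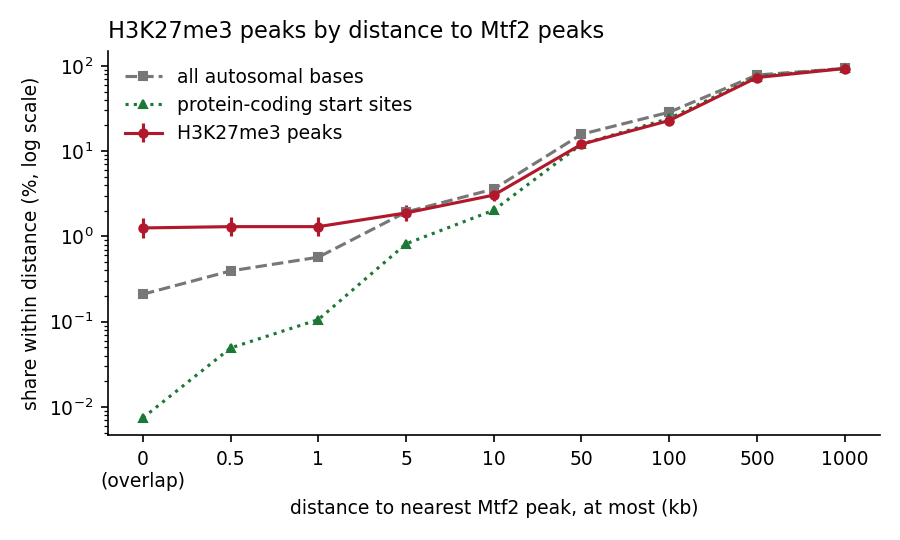
Share of the 4456 H3K27me3 peaks (with 95% Wilson intervals), of autosomal length and of protein-coding start sites within a given distance (kb) of a Mtf2 peak. H3K27me3 peaks lie above the autosomal length up to 1 kb, with the overlapped peaks included, level with it at 5 kb and below it at 50 and 100 kb, and start sites lie below it up to 100 kb.

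H3K27me3 peaks in promoters were, by median, farther from Mtf2 than those in intergenic regions. The median distance was 289.6 kb for the 1987 peaks with a summit within 1 kb of a TSS and 222.7 kb for the 1080 intergenic peaks. For the 2115 peaks at CpG island-like sequence it was 285.1 kb, and for the 1316 peaks with a score of at least 100 it was 287.6 kb. Sequence was called CpG island-like where the 1 kb around the summit had 50% GC or more and a CpG ratio, the observed CpG count over that expected from base content, of 0.6 or more. A Mtf2 peak lay on 1 of the 2115 CpG island-like H3K27me3 peaks (0.0473%, interval 0.00835 to 0.267%) and on 55 of the 2341 others (2.35%, interval 1.81 to 3.05%). Among H3K27me3 peaks with a score of at least 100, 1 of 1316 was overlapped (0.0760%, interval 0.0134 to 0.429%).

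The place of each class along genes differed widely. Of the H3K27me3 peaks without Mtf2, 45.1% (interval 43.7 to 46.6%) had their summit in a proximal promoter, within 1 kb of a TSS, and 23.7% were intergenic. Of the Mtf2 peaks without H3K27me3, 0.594% (interval 0.411 to 0.857%) were in a proximal promoter, 24.2% in an intron and 71.5% (interval 70.2 to 72.8%) intergenic. On the regular grid, 3.30% of positions were in a proximal promoter, 32.5% in an intron and 56.5% intergenic. The 56 H3K27me3 peaks with Mtf2 resembled the Mtf2 list in place, with 38 intergenic (67.9%, interval 54.8 to 78.6%), 15 in introns, 1 in a distal promoter (1 to 5 kb upstream of a TSS) and 2 in a proximal promoter, those of *Nfix* and *Gne*. *Gne* encodes an enzyme of sialic acid synthesis. Of these 56 peaks, 24 (42.9%) lay over 100 kb from any TSS, as did 41.0% of Mtf2 peaks without H3K27me3 and 7.39% of H3K27me3 peaks without Mtf2.

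**Figure D2:**
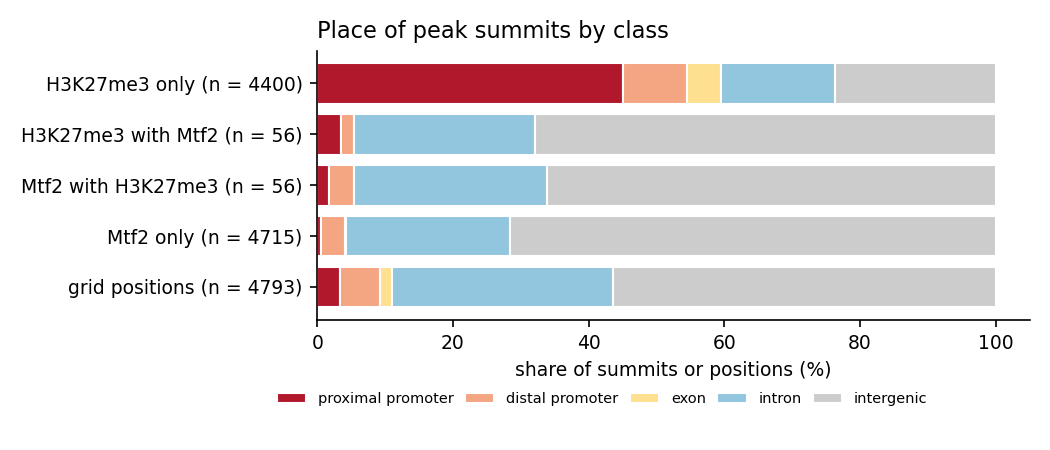
Share of peak summits (or of grid positions, every 500 kb) in proximal promoters, distal promoters, exons, introns and intergenic sequence for each class, in percent of the number given. H3K27me3 peaks without Mtf2 reach 45.1% in proximal promoters, while the other 3 classes lie between 0.594% and 3.57% there and between 66.1% and 71.5% in intergenic sequence.

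Mtf2 peaks were nearly absent from start sites themselves. Of the 67112 distinct TSS of autosomal protein-coding genes, 5 lay inside a Mtf2 peak (0.00745%), compared with 0.210% of the autosomal length, and 71 lay within 1 kb of one (0.106%, compared with 0.571%). The 5 TSS belonged to *Mtf2*, *Stx18*, *Ift80*, *Tardbp* and *Ermp1*, named after their values were seen. The peak at *Mtf2* itself was the highest-scoring of the 29 Mtf2 peaks in a proximal promoter, with 43 tags, a score of 127.2, a fold enrichment of 23.4 and an FDR of 9.84%. It lay on chromosome 5 from 108515321 to 108516202 at an internal start site of the gene, in sequence of 38.6% GC with a copy number of 1, and 236.7 kb from the nearest H3K27me3 peak. No peak of the other 4 lists overlapped it. The remaining 4 peaks had scores from 52.2 to 84.7, and all 4 lay in sequence with a copy number of at least 40.0, a measure explained below. The scarcity near start sites was a trait of the list as a whole, most of which lay in repeated sequence. Among the 284 Mtf2 peaks with a copy number under 10, the proximal promoter share was 2.82% (interval 1.43 to 5.46%), near the 3.30% of the grid.

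Base composition separated the H3K27me3 peaks without Mtf2 from the other classes. The median GC content of 1 kb around the summit was 57.5% for H3K27me3 peaks without Mtf2, 43.0% for Mtf2 peaks without H3K27me3, 43.8% for H3K27me3 peaks with Mtf2 and 41.6% for the grid. The median CpG ratio was 0.584, 0.227, 0.162 and 0.160 in the same order. CpG island-like sequence was found at 48.0% (interval 46.6 to 49.5%) of H3K27me3 peaks without Mtf2, at 0.467% (interval 0.308 to 0.706%) of Mtf2 peaks without H3K27me3 and at 0.668% (interval 0.473 to 0.941%) of grid positions. Of the H3K27me3 peaks with Mtf2, 1 of 56 was CpG island-like, the *Nfix* peak. The *Dock2* peak, at 34.8% GC, had a CpG ratio of 0.742, so neither window shown above for this class is typical of it. The difference held for the surroundings, as the 100 kb around the summit had a median GC content of 46.1% for H3K27me3 peaks without Mtf2, 40.6% for Mtf2 peaks without H3K27me3 and 41.4% for the grid.

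**Figure D3:**
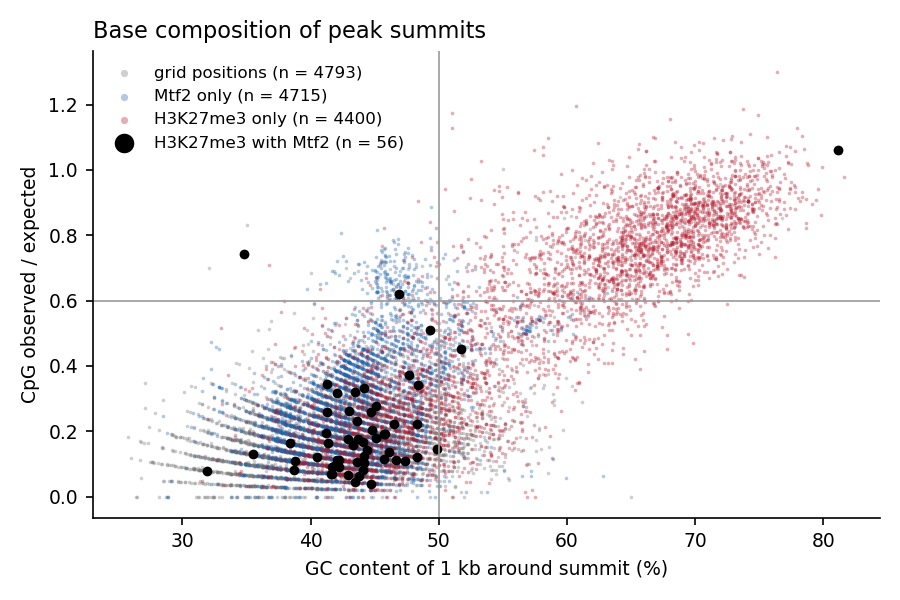
GC content (percent) and observed over expected CpG ratio of the 1 kb around each summit; small points are H3K27me3 peaks without Mtf2, Mtf2 peaks without H3K27me3 and grid positions, large black points are the 56 H3K27me3 peaks with Mtf2, and grey lines mark the CpG island-like limits. The *Nfix* peak, at 81.1% GC and a ratio of 1.06, is the only black point in the upper right field.

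Along the chromosomes the 2 lists favoured different regions. The autosomes were cut into 2391 windows of 1 Mb, of which 1536 held a H3K27me3 peak, 1923 held a Mtf2 peak, 1183 held both and 115 neither. Across windows, which share libraries and base composition, the 2 counts had a Spearman rho of −0.17 and a Pearson r of −0.15, given as a description only. The 598 windows richest in GC held 55.6% of the H3K27me3 peaks and 18.7% of the Mtf2 peaks. The 598 windows poorest in GC held 5.25% of the H3K27me3 peaks and 31.1% of the Mtf2 peaks. Among chromosomes, the ratio of H3K27me3 to Mtf2 peaks was highest on chromosome 11, at 1.94, and lowest on chromosome 16, at 0.532.

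Mtf2 peaks lay almost throughout in sequence that occurs many times in the genome. For each summit the 25-base words of the 300 bases around it were counted on both strands of the whole assembly, and the median count is called the copy number. It was at least 10 at 94.2% (interval 93.5 to 94.8%) of Mtf2 peaks without H3K27me3, at 6.52% (interval 5.83 to 7.29%) of H3K27me3 peaks without Mtf2 and at 9.87% (interval 9.06 to 10.7%) of grid positions. The median copy number was 936.0 for Mtf2 peaks without H3K27me3 and 1.0 for both H3K27me3 peaks without Mtf2 and the grid. The 56 H3K27me3 peaks with Mtf2 had a median of 506.8, with 47 of them (83.9%, interval 72.2 to 91.3%) at 10 or more. No repeat annotation was used, and how the authors placed reads that match several sites is not given in the sources used here, so the position of a peak in repeated sequence is less certain than that of a peak in unique sequence.

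**Figure D4:**
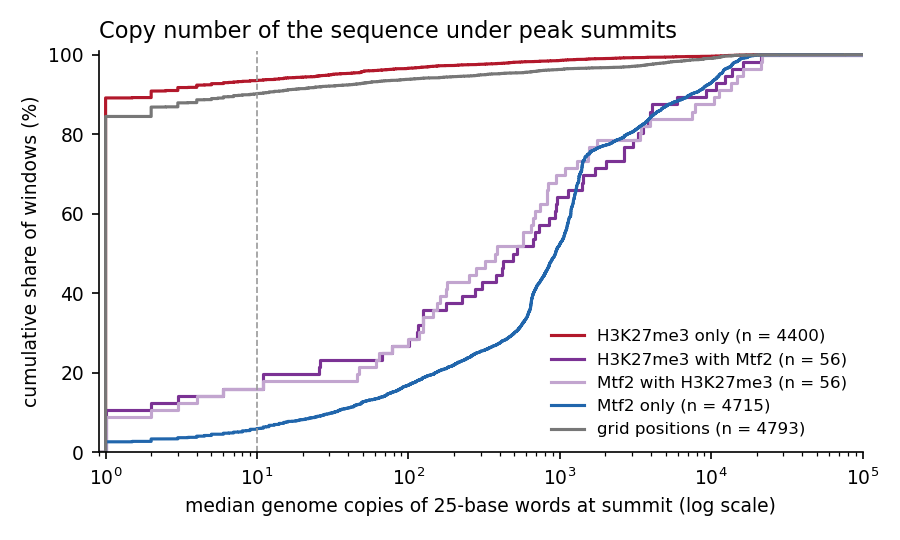
Cumulative share of summit windows (percent) against the median number of genome copies of their 25-base words (log axis) for the 4 classes and the grid; the dashed line marks 10 copies. At 10 copies or more lie 6.52% of H3K27me3 peaks without Mtf2 and 9.87% of grid positions, compared with 83.9 to 94.2% of the other 3 classes.

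Most of the overlap lay at such repeated places, which held 47 of the 56 overlapped peaks of either list. Among H3K27me3 peaks with a copy number of at least 10, 47 of 334 (14.1%, interval 10.7 to 18.2%) shared a base with a Mtf2 peak, and at 100 copies or more 41 of 190 did (21.6%, interval 16.3 to 27.96%). Among those with fewer than 10 copies, 9 of 4122 did (0.218%, interval 0.115 to 0.414%). The whole Mtf2 list, mostly in repeated sequence, covers 0.210% of autosomal length, and 0.394% lies within 0.5 kb of it. Mtf2 peaks with fewer than 10 copies cover only 0.00868%, with 0.0202% within 0.5 kb. They overlapped 6 of the 4122 peaks (0.146%, interval 0.0667 to 0.317%), a share above both. Of these 6 pairs, those nearest *Gm13151*, *Gm13235* and *Smyd4* had copy numbers of 6, 3 and 2, and that at *Dock2* is made of near-repeats. At *Nfix* and *Macf1* the copy number was 1, but the Mtf2 scores, 50.7 and 54.6, were below the list's median of 60.65. Grid regions of 1 kb were overlapped at 2.11% (interval 1.15 to 3.85%) where the copy number was at least 10 and at 0.116% (interval 0.0495 to 0.271%) where it was lower. Within intergenic H3K27me3 peaks alone, the share was 17.4% of 201 peaks with repeated sequence and 0.341% of 879 others. The 334 H3K27me3 peaks in repeated sequence were weaker than the list as a whole, with a median score of 56.7 and a median FDR of 25.9%, and 201 of them were intergenic. From the Mtf2 side the order was the other way. Of 4487 Mtf2 peaks with a copy number of at least 10, 47 overlapped H3K27me3 (1.05%, interval 0.789 to 1.39%). Of the 284 others 9 did (3.17%, interval 1.68 to 5.91%), while H3K27me3 peaks covered 0.217% of the autosomal length. Of those 284 Mtf2 peaks, 0 were CpG island-like (a count of 0 here leaves room for up to 1.06%). In a proximal promoter were 8 of them (2.82%, compared with 3.30% of the grid), and 17.6% had their summit within 5 kb of a TSS (interval 13.6 to 22.5%, compared with 13.7%).

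Some of the shared peaks carried the same sequence. The 25-base word found in most summit windows of H3K27me3 peaks with Mtf2 occurred in 7 of the 56, on 6 chromosomes. It is shown in capitals with 28 bases on either side, in the same orientation.
Rfxap (chr3:54633090-54633170, - strand): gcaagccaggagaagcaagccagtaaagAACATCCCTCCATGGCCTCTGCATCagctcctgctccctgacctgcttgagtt
Gm8910 (chr3:11154461-11154541, + strand): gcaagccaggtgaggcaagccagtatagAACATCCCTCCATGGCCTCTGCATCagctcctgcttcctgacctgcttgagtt
Celf2 (chr2:7435013-7435093, + strand): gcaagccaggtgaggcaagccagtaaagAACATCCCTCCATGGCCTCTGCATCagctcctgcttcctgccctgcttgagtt
Creg2 (chr1:39716695-39716775, + strand): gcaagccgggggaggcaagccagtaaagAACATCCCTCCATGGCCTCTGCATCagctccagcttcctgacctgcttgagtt
Kcnq3 (chr15:65995240-65995320, + strand): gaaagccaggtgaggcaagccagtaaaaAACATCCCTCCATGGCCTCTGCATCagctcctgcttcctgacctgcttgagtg
Ank3 (chr10:69288663-69288743, - strand): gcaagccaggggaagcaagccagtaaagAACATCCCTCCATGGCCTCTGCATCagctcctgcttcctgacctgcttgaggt
Chrm2 (chr6:36272103-36272183, + strand): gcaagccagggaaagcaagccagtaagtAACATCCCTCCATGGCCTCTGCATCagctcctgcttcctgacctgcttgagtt
Between any 2 of these stretches the identity was 91.4 to 97.5%, with a median of 95.1% over 21 pairs. These values include the 25 bases of the word, which are the same by selection, so they overstate the likeness of the flanks. Of the 7 stretches, 6 held no CpG. The word occurs 8585 times in the assembly. It was found in the windows of 124 Mtf2 peaks without H3K27me3 (2.63%), 15 H3K27me3 peaks without Mtf2 (0.341%) and 5 grid positions (0.104%). Among Mtf2 peaks without H3K27me3 the most frequent word was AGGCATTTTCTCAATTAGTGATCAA, with 144 windows (3.05%) and 10099 copies in the assembly. Of these Mtf2 windows 96.5% shared at least 1 word with another Mtf2 window, compared with 25.8% of grid windows among themselves and 24.2% of the windows of H3K27me3 peaks without Mtf2 within the H3K27me3 list. The most frequent word of the latter was a run of CA dinucleotides, in 142 of 4400 windows (3.23%) and in 2.32% of grid windows.

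The shared pairs were weak in the H3K27me3 list, with few exceptions. H3K27me3 peaks with Mtf2 had a median of 26 tags, a score of 57.8 and an FDR of 24.2%, compared with 36 tags, 68.9 and 14.3% for H3K27me3 peaks without Mtf2. A score of at least 100 was reached by 1 of 56 of the former and by 29.9% of the latter. On the Mtf2 side the median score was 66.9 with H3K27me3 and 60.6 without it, and 4 of 56 and 6.91% of the peaks reached 100. Their median fold enrichment was 12.8 with H3K27me3 and 10.1 without it.

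*Nfix* was the 1 promoter pair with a strong H3K27me3 peak. That peak lay on chromosome 8 from 87322353 to 87325507 over the TSS, with 141 tags, a score of 363.6, an enrichment of 8.10-fold and an FDR of 2.68%. The Mtf2 peak inside it, from 87325087 to 87325421, had 16 tags, a score of 50.7 and an FDR of 9.82%, and its summit lay 1528 bases from the H3K27me3 summit. Both summits were in sequence with a copy number of 1, and no peak of the other 4 lists overlapped either. The Mtf2 peak was thus close to the lowest score in its list, which was 50.

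The *Dock2* pair had the highest score on the Mtf2 side, but also the highest Mtf2 FDR of the 57 pairs, 18.75% against a median of 7.87%. On chromosome 11, the H3K27me3 peak from 34495168 to 34496159 held 163 tags at a score of 98.4 and was enriched 4.18-fold. The Mtf2 peak from 34495137 to 34496397 held 135 tags at a score of 157.4 and was enriched 7.37-fold, and the summits lay 3 bases apart in an intron. At least 1 peak of this pair was also overlapped by the H3K27me3 list of WT CD71+Ter119-/lo pro-erythroblasts. Its copy number was 1, and its sequence, shown above, is made of near-repeats.

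The other 8 of the 10 highest-scoring H3K27me3 peaks with Mtf2 lay outside promoters or upstream of one. The peak nearest *Lrfn5* (a synaptic adhesion protein) on chromosome 12 was 688.6 kb from the TSS, with scores of 89.6 for H3K27me3 and 103.8 for Mtf2. The peak nearest *Rfxap* (a regulator of MHC class II genes) on chromosome 3 scored 88.8 and 56.7, and the peak nearest *Gm13151* on chromosome 4 scored 79.9 and 93.1. The peak nearest *1600021P15Rik* scored 76.7 and 66.3, and the peak nearest *Gm8910* scored 73.5 and 105.3. The peak nearest *Msr1* (a macrophage scavenger receptor) scored 70.7 and 83.8, and the peak nearest *Alg10b* scored 69.6 and 53.6. The peak at *N4bp2*, in its distal promoter on chromosome 5, scored 68.1 and 76.2. Apart from *Nfix* and *Dock2*, these peaks had CpG ratios between 0.0400 and 0.258.

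**Figure D5:**
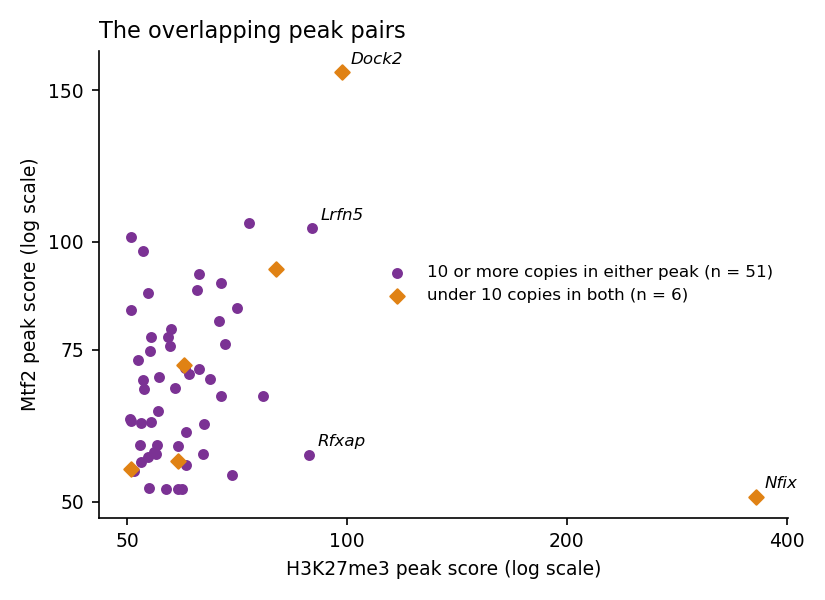
Score of the H3K27me3 peak and of the Mtf2 peak (the peak caller's p on a negative log scale, log axes) in each of the 57 overlapping pairs; diamonds are the 6 pairs with a copy number under 10 at both summits. *Nfix*, with 363.6 for H3K27me3 and 50.7 for Mtf2, and *Dock2*, with 98.4 and 157.4, stand apart from the rest.

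At the level of genes, 28 autosomal protein-coding genes had a peak of each list near a TSS, though not always near the same TSS. Counting peaks up to 5 kb from any TSS, 2562 of 21418 genes had H3K27me3 (12.0%), with a Mtf2 peak at 314 (1.47%), and both at 28 (0.131%). Mtf2 was thus found at 1.09% of the genes with H3K27me3 (interval 0.757 to 1.57%) and at 1.52% of the genes without it (interval 1.35 to 1.70%), intervals that overlap. Seen from the Mtf2 list, 8.92% of its genes carried H3K27me3 (interval 6.24 to 12.6%), compared with the 12.0% of all genes. In 4 of the 28 genes (*Nfix*, *Spnb4*, *N4bp2* and *Gne*) a Mtf2 and a H3K27me3 peak shared bases. At 19 genes the strongest H3K27me3 peak covered a TSS, and at 0 of them did the strongest Mtf2 peak. The H3K27me3 peak lay in repeated sequence, with 10 or more copies, at 3 of the 28 genes and the Mtf2 peak at 24.

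At 17 of the 28 genes the H3K27me3 peak scored at least 100. After *Nfix* they were led by *Spnb4* (a spectrin of axons), with 325.8, and *Trim71* (an RNA-binding ubiquitin ligase of stem cells), with 325.0. That *Spnb4* peak lay 13031 bases from the Mtf2 peak. The H3K27me3 peak of *Spnb4* that shared bases with Mtf2 was another, in an intron, with a score of 54.4 and an FDR of 28.5%. The *Trim71* H3K27me3 peak on chromosome 9 ended 1835 bases from a Mtf2 peak that scored 65.7 and was enriched 23.7-fold. *B230208H17Rik*, *Klc3* (a kinesin light chain), *Prr18* and *Fgf2* (a fibroblast growth factor) followed with H3K27me3 scores from 210.3 to 302.3, then *Sgms1* (sphingomyelin synthesis), *Sap30l*, *P4ha2* (collagen hydroxylation), *Lrrc8d* and *Sbf2* with 134.5 to 187.0. *Gldc*, the glycine decarboxylase, had a H3K27me3 score of 124.4 over its TSS and a Mtf2 peak with a score of 100.6 and a copy number of 2 at a distance of 3218 bases. *H1fx* (a linker histone) and its neighbour *Gm5577* shared both peaks, with a H3K27me3 score of 111.1 and a Mtf2 score of 50.8. *Fbll1* and *Apoh* (a plasma protein made in liver) had H3K27me3 scores of 103.1 and 100. The remaining genes were *Arg2* (an arginase), *Rnf157*, *Chn1*, *N4bp2*, *Dhcr7* (the last step of cholesterol synthesis), *Ulk4*, *Mtap1a*, *Cldn9* (a claudin), *Gne*, *Echdc3* and *Gm10731*, with H3K27me3 scores from 51.7 to 93.4. Most of these genes had H3K27me3 at the promoter and a Mtf2 peak at some distance, in repeated sequence. The strongest peaks of the 2 lists overlapped at *Nfix* and *N4bp2*. The widest gaps between them were 178025 bases at *Sgms1*, 154129 at *Sbf2* and 149157 at *Chn1*, where they lay near different start sites.

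Families of developmental regulators often carried H3K27me3, while their share of genes with Mtf2 was near that of all genes. Over 13 families, 103 of 159 genes (64.8%) had a H3K27me3 peak, compared with 12.0% of all genes, 2 had a Mtf2 peak (1.26%, compared with 1.47%) and 0 had both. H3K27me3 was found at all 8 *Lhx* and all 5 *Gata* genes, at 12 of 14 *Nkx*, 5 of 6 *Irx*, 7 of 10 *Fzd* and 4 of 6 *Dlx* genes. It was found at 12 of 19 *Wnt*, 10 of 17 *Sox*, 23 of 40 *Fox*, 5 of 9 *Pax*, 6 of 12 *Tbx* and 2 of 7 *Cdkn* genes. Among these, *Tbx2* had a score of 703.4, *Foxd2* 551.0, *Nkx1-1* 454.1, *Irx3* 329.3, *Lhx2* 310.7 and *Wnt3a* 216.8. The 2 Mtf2 peaks were at *Foxj3*, with a score of 78.0 and a copy number of 3998, and at *Cdkn1a*, where the peak edge lay 3625 bases from a TSS. *Cdkn1c* and *Cdkn2a*, also cell cycle inhibitors, had H3K27me3 scores of 86.4 and 55.3.

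Among 16 genes of the Polycomb complexes themselves, H3K27me3 was found at 4 (25%, compared with 12.0% of all genes), among them the PRC1 genes *Bmi1* (score 393.7), *Cbx7* (140.0) and *Cbx2* (62.5), and Mtf2 at 1 (6.25%, compared with 1.47%), *Mtf2* itself. Of 8 genes taken from the study's text and supplementary tables, *Gata2*, *Fli1*, *Gata3* and *Cxcr4* had H3K27me3, with scores of 133.0, 75.7, 74.2 and 69.3, and *Myb*, *Stat5b*, *Dnmt3b* and *Ctnnb1* had no peak within 5 kb of a TSS. None of the 8 had a Mtf2 peak there, which allows a share of up to 37.5%. That list was chosen in part from these libraries and is no independent evidence.

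The markers of cell types were read as a check of the sorted population. Of 13 erythroid genes, 1 had a H3K27me3 peak (7.69%, near the 12.0% of all genes), *Ank1* (ankyrin of the red cell membrane) with a score of 235.9. The defining erythroid transcription factors *Klf1*, *Tal1*, *Nfe2* and *Zfpm1* and the globins *Hbb-b1* and *Hba-a1* had none. Of 32 marker genes of other cell types, 12 had one (37.5%, compared with 12.0%). They were 3 of 7 hepatocyte genes (*Foxa1*, *Foxa2* and *Hnf4a*), 1 of 8 macrophage and myeloid genes (*Cebpa*, score 234.3), 2 of 5 megakaryocyte genes (*Gp1bb* and *Fli1*), 4 of 7 lymphoid genes (*Pax5*, *Tcf7*, *Ebf1* and *Gata3*) and 2 of 5 endothelial and stromal genes (*Kdr* and *Pdgfra*). Mtf2 peaks were found at 0 of the 13 erythroid genes and 0 of the 32 others, which allows shares of up to 23.1% and 9.38%, limits above the 1.47% of all genes. A called peak is not a measure of expression, and RNA was not analysed here.

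Further families, of receptors, defensins, keratins and adhesion proteins, differed among themselves. Of 1106 olfactory receptor genes, 4 had H3K27me3 (0.362%, compared with 12.0% of all genes) and 17 had Mtf2 (1.54%, compared with 1.47% of all genes). Of 326 vomeronasal receptor genes, 1 had H3K27me3 and 5 had Mtf2 (1.53%), and of 55 defensin genes 0 and 1 did. Keratins had H3K27me3 at 1 of 99 genes (1.01%, *Krt18*), cadherins and protocadherins at 8 of 62 (12.9%, near the 12.0% of all genes), among them *Pcdh1* with a score of 474.8, glutamate receptors at 9 of 26 (34.6%), among them *Grm4* with 319.5, and contactins and neurexins at 2 of 16 (12.5%). These last 4 families had 0 Mtf2 peaks, which allows shares of up to 3.03%, 4.84%, 11.5% and 18.8%, all above the 1.47% of all genes. Mtf2 peaks near receptor genes were thus about as frequent as near all genes, while H3K27me3 peaks there were scarcer.

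The 10 highest-scoring peaks of each list lay at different kinds of place. For H3K27me3 without Mtf2 they were named, after *Unc45b* with a score of 3016, by *March9* (1105), *Clcf1* (1047), *Pou3f3* (910.4), *Zswim5* (856.7), *Rhbdf1* (834.9), *Tlx2* (821.7), *Il17ra* (782.7), *Comp* (775.1) and *Pou3f1* (756.9). *Pou3f1*, *Pou3f3* and *Tlx2* encode transcription factors of neural development. Their distances to the nearest Mtf2 peak ran from 68.4 kb at *Pou3f3* to 881.5 kb at *Pou3f1*. For Mtf2 without H3K27me3 they were named by *Cdkn1a* (263.4), *Matn1* (251.7), *Pcdh7* (248.2), *Fgf14* (247.9), *A630055G03Rik* (218.9), *1700009N14Rik* (210.7), *Cntnap3* (201.3), *Magi2* (200.2), *Slc16a7* (199.9) and *Ces2h* (199.6). Of these, 2 were in introns and 8 were intergenic, and the *Pcdh7* peak lay 1287 kb from the nearest TSS. The *A630055G03Rik* peak was the nearest of them to H3K27me3, at 7.66 kb, and the others lay 128.3 kb or more away. The FDR of the 10 ran from 46.15 to 100%, against a median of 8.42% for the Mtf2 list.

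The other lists of the series gave each class a different company. Of the Mtf2 peaks without H3K27me3, 60.4% (interval 59.0 to 61.8%) shared bases with the Mtf2 list of WT CD71+Ter119-/lo pro-erythroblasts, whose list covers 2.02% of the autosomal length. Of the H3K27me3 peaks with Mtf2, 17 of 56 (30.4%, interval 19.9 to 43.3%) did, and of the H3K27me3 peaks without it 1.45% (interval 1.14 to 1.85%). The H3K27me3 list of the pro-erythroblasts, which covers 0.180%, overlapped 12.6% (interval 11.7 to 13.6%) of the Mtf2 peaks without H3K27me3 and 6.23% (interval 5.55 to 6.98%) of the H3K27me3 peaks without Mtf2. The H3K27me3 list of Mtf2-null CD71+Ter119high cells covers 0.384% of the autosomal length. With it these shares were 1.97% and 0.568%, and 2 of 56 for the H3K27me3 peaks with Mtf2. The H3K27me3 list of Mtf2-null CD71+Ter119-/lo cells covers 0.0453%. With that list the shares, in the same order, were 0.0424% and 1.84%, and 0 of 56, which allows up to 5.36%. A copy number of at least 10 was found at 80.5% of the former list's autosomal peaks and at 17.1% of the latter's. Erythroblast Mtf2 peaks outside repeated sequence were overlapped by pro-erythroblast Mtf2 peaks at 7.04% (interval 4.61 to 10.6%), so most of the Mtf2 peaks found at both stages lay in repeated sequence.

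In pro-erythroblasts the same comparison gave other values. There 2716 of 4695 autosomal H3K27me3 peaks (57.8%, interval 56.4 to 59.3%) shared a base with a Mtf2 peak. Of those H3K27me3 peaks, 72.8% had a copy number of at least 10, compared with 334 of 4456 in erythroblasts. The overlap was 76.5% of 3419 peaks with repeated sequence and 7.99% (interval 6.63 to 9.61%) of 1276 others, against 14.1% and 0.218% in erythroblasts. In both stages H3K27me3 in repeated sequence was thus overlapped more often than H3K27me3 elsewhere, and the difference between the stages was not tested, since each stage has 1 library of each kind, the pro-erythroblast Mtf2 list is longer, with 25805 autosomal peaks, and other IgG libraries served as control.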

How the data were processed

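ChIP-seq peak lists of WT CD71+Ter119high FL cells were analysed, with the other 4 lists of the series for comparison. The authors aligned reads to mm9 with Bowtie2 2.2.3 and called peaks with MACS 1.3.7 at p 1e-05 against the IgG library of the same fraction, per the file headers and the submitters' processing notes. How reads matching several sites were treated, and what was masked, is not given in the sources used here. The deposited values are tag counts per peak, a score (the p-value on a negative log scale), a fold enrichment ratio over IgG and an FDR in percent, used as the authors' values.

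Overlap meant at least 1 shared base. Place, composition and copy number were read at the summit from the NCBIM37 genome and its annotation, and a gene was counted where a peak lay up to 5 kb from any of its TSS. The grid had a position every 500 kb, 4793 in all, after 143 with unsequenced bases were left out. Copy number was the median genome count of the 25-base words of 300 bases. Scripts ran in Python 3.11.15 with pandas 2.3.3, numpy 2.4.6, numba 0.67.0, scipy 1.17.1 and matplotlib 3.10.9, and the steps were tested on simulated data. With 1 library per condition no test was made, and Wilson intervals at 95% cover counting error only. A limit for 0 rests on 3 counts.

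The members and gene lists were chosen with earlier results of these data known. Named were all genes with both peaks, the genes nearest the 10 highest-scoring peaks of each class, and list genes with a peak. Lists held erythroid genes, markers of other cell types, Polycomb genes, genes of the study, developmental families and families thought common in gene-poor regions. Gene density around these last families was not measured. Erythroid symbols without a match among the autosomal genes were left out, and some list genes and a sequence are not reported here. Alternatives were higher score or lower FDR limits, the 1000 highest-scoring peaks, and other overlap and TSS windows. All chromosomes and peak centres were also used. Chosen after seeing the data were low copy number and peak centres for copy number.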

Additional observations from a re-analysis of the deposited data

Results flagged for a closer look

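On the X and Y chromosomes, which the comparison of autosomes leaves out, a Mtf2 peak lay on 4 of 34 H3K27me3 peaks (11.8%, Wilson interval 4.67 to 26.6%). All 4 overlapped H3K27me3 peaks had a copy number of at least 10, and from the Mtf2 side 4 of 538 peaks overlapped H3K27me3. These peaks are listed because they lie outside the main measurement, and with 1 library per condition the share was not tested against the autosomes.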

How the results depend on the processing

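Of 44 alternatives over 9 results, 11 kept the value within the 95% interval of the value as reported (for gene counts, within 1.5 times it) and 33 did not. With scores of at least 100 in both lists, 0 of 1316 H3K27me3 peaks and 0 of 330 Mtf2 peaks overlapped (0% each), the median distance was 3503 kb, the proximal promoter share was 0.303% of Mtf2 and 71.8% of H3K27me3 peaks without the other, 85.1% of the latter were CpG island-like and 2 genes had both peaks. With an FDR of at most 10%, the overlap was 0.225% of H3K27me3 and 0.0915% of Mtf2 peaks, the distance 302.6 kb, the H3K27me3 promoter share 67.7%, the CpG island-like share 79.9% and the genes 18. With the 1000 highest-scoring peaks of each list, the values were 0% and 0%, 1065 kb, 0.300% and 72.5% in promoters, 88.5% CpG island-like and 2 genes. With copy numbers under 10 in both lists, chosen after seeing the data, they were 0.146% and 2.11%, 3158 kb, 2.88% and 48.2%, 51.2% and 4 genes. Fewer peaks enter each of these 4 settings, which lengthens distances by construction. A high Mtf2 score did not mean a low FDR. The 10 highest-scoring Mtf2 peaks without H3K27me3 had FDRs from 46.15 to 100%. Mtf2 and H3K27me3 covered 0.0232% and 0.0976% of the length with scores of at least 100, and 0.0566% and 0.0792% with the 1000 highest-scoring peaks. The intervals of the 0 shares reach 0.291% of H3K27me3 and 1.15% of Mtf2 peaks in the former and 0.383% in the latter. As these limits exceed the lengths covered, the 0 counts cannot tell if the overlap stayed above them. With the FDR limit, the H3K27me3 share (interval 0.0874 to 0.576%) was near the 0.189% covered by Mtf2. It was below the 0.3585% within 0.5 kb of a Mtf2 peak. The Mtf2 share (interval 0.0356 to 0.235%) was under the 0.121% covered by H3K27me3 and the 0.19% within 0.5 kb of it. Each of these lengths lies within the interval of its share. With low copy numbers, Mtf2 and H3K27me3 covered 0.00868% and 0.204%, below the overlap. A TSS window of 2 kb gave promoter shares of 1.68% for Mtf2 and 53.8% for H3K27me3 peaks without the other. Peak centres, also chosen after seeing the data, gave copy numbers of at least 10 at 92.9% and 5.82% of them. Genes with both peaks numbered 4 with a TSS window of 1 kb and 234 over whole genes. The cause of the other shifts was not tested. No paired analysis was possible because each condition has 1 library and no test was run, and no replicate could be left out.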
